A study of Homo sapiens with 8 samples.

Results

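The genes examined here are 8 genes for transcription factors of intestinal and epithelial identity, CDX1, CDX2, HNF4A, HNF4G, GRHL1, GRHL2, ELF3 and EHF, out of 20136 protein-coding genes. They were listed by name, with earlier results of these data known, and the rule that collects their peaks uses no measured value. For each gene, all peaks within 2 kb of a transcription start site (TSS), in the gene body and within 100 kb on either side were collected from 8 CUT&Tag peak lists on hg19. In CUT&Tag an antibody tethers a transposase where its antigen lies, and the DNA cut there is sequenced. The antigens were succinylated lysine 23 (H3K23su) and acetylated lysine 27 (H3K27ac) of histone H3, the latter a widely used mark of active promoters and enhancers. Both were profiled in HCT15, an established human colon cancer line, as parental cells (HCT15-Pa), labelled as treated with the solvent DMSO, and as a derived line resistant to 5-fluorouracil (HCT15-FR), labelled as treated with 5-FU at 20 μg/ml. By the study's methods, the resistant cells were kept without the drug for some days ahead of each experiment. 5-FU is a pyrimidine analogue used in chemotherapy of colon cancer. There were 2 libraries for each mark in each line. The labels do not say that the 2 libraries came from separate cultures, so the spread between them may be technical, and only 1 resistant line was profiled, so that resistance and other differences between these lines cannot be told apart.

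CDX1 and CDX2 are caudal-type homeobox factors that direct and maintain intestinal differentiation. HNF4A and HNF4G are nuclear receptors that drive genes of the absorptive enterocyte, HNF4A also in liver. GRHL1 and GRHL2 are grainyhead-like factors that maintain epithelial junctions and adhesion, and ELF3 and EHF are ETS family factors restricted largely to epithelia. Such genes often carry acetylated promoters and distal elements in the tissues whose identity they maintain. Histone succinylation is a lysine acylation that carries a negative charge, unlike acetylation, and is also found at active promoters.

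On hg19, the genes are CDX1 (chr5:149546341-149564121, plus strand), CDX2 (chr13:28535055-28543452, minus), HNF4A (chr20:42984339-43061485, plus), HNF4G (chr8:76320149-76479069, plus), GRHL1 (chr2:10091822-10142405, plus), GRHL2 (chr8:102504667-102681954, plus), ELF3 (chr1:201977073-201986311, plus) and EHF (chr11:34642640-34684835, plus).

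The lists held between 65364 and 76676 peaks, and each peak carries a score, the authors' −log10 of its P value. Scores are given below as percentiles within the peak's own list. The lists hold no read counts, so a missing peak means only that none passed the authors' threshold. The HCT15-FR lists covered more of the genome than the HCT15-Pa lists, 40.0 and 39.4 Mb against 33.5 and 33.0 Mb for H3K23su, and 46.3 and 46.6 Mb against 39.5 and 38.8 Mb for H3K27ac. This difference moves with line and lies beneath every covered length given below. Of 7 colon epithelial marker genes (EPCAM, CDH1, KRT8, KRT18, KRT19, VIL1 and CDH17), 7 had an H3K27ac promoter peak in all 4 libraries, and 6 had one for H3K23su. No library had an H3K27ac promoter peak at 2 of 4 leukocyte markers, 3 of 4 fibroblast markers, 1 of 2 endothelial markers and 3 of 3 hepatocyte markers, among them PTPRC, DCN, VWF and ALB, whereas CD14 had promoter peaks of both marks in all libraries and COL1A1 had H3K27ac in all.

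Overlapping peaks from the libraries of a mark were joined into regions. A region or promoter is called FR-only if both HCT15-FR libraries and no HCT15-Pa library had a peak there, Pa-only in the opposite case, and shared if all 4 libraries had one. A promoter is the stretch within 2 kb of the TSS of the canonical transcript. The sequence upstream of a TSS is shown next for CDX1 and GRHL1, whose H3K23su promoters were FR-only, and for CDX2, ELF3 and HNF4A as examples that held CDX, GATA or FOX letters. These are 200 bp of hg19 that end at the base before the TSS, in the direction of transcription. Capitals mark exact matches on either strand. The letters searched were CNATAAA for the CDX family of factors, AGATAA for the GATA family of zinc finger factors and TGTTTAC for forkhead (FOX) factors.

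CDX1, chr5:149546141-149546340, plus strand: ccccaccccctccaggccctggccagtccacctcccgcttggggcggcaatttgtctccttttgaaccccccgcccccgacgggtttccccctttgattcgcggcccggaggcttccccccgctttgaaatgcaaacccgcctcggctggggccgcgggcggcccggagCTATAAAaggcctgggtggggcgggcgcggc
CDX2, chr13:28543453-28543652, minus strand: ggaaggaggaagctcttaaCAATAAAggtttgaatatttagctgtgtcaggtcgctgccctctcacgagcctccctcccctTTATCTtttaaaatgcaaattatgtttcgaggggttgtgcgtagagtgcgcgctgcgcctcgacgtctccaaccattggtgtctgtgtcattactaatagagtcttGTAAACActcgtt
ELF3, chr1:201979515-201979714, plus strand: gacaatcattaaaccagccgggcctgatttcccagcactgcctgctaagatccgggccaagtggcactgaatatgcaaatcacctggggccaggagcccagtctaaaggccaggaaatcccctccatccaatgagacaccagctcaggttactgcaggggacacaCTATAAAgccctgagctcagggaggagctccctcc
HNF4A, chr20:42984139-42984338, plus strand: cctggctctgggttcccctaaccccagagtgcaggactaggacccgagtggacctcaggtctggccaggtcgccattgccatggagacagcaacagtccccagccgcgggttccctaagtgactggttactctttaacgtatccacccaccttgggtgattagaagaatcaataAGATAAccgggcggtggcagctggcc
GRHL1, chr2:10091622-10091821, plus strand: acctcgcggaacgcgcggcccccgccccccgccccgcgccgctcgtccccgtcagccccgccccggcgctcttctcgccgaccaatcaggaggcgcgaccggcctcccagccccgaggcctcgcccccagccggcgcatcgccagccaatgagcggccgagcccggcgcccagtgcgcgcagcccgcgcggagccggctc

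The CDX letters were present upstream of 4 of the 8 genes (CDX1, CDX2, ELF3 and HNF4G), against 6.01% of the 20136 protein-coding genes. In CDX1 and ELF3 the match CTATAAA also holds the letters of a TATA box, so the 2 motifs overlap there. The GATA letters were present upstream of 4 genes (CDX2, HNF4A, HNF4G and EHF), against 4.85% of all genes. The FOX letters were present in CDX2 alone among the 8, against 1.63% of all. The other motifs searched, AP-1 (TGANTCA), ETS (CAGGAAG), GRHL (AACNNGTT) and HNF4 (CAAAGTNCA), had no match in these 8 windows. A match is only a run of letters.

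At promoters, CDX1 was FR-only in both marks, the only 1 of the 8 genes in that class. No HCT15-Pa library had a peak within 2 kb of its TSS. For H3K27ac, the HCT15-FR libraries had a peak at the TSS at the 70.0 and 76.6 percentiles, 665 and 508 bp wide. For H3K23su, both HCT15-FR libraries also had a peak at the TSS, at the 38.6 and 38.2 percentiles, and replicate 1 had another about 2 kb upstream at the 71.5 percentile. Among all protein-coding genes, 88 (0.437%) were FR-only in both marks, against 151 (0.750%) that were Pa-only in both.

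**Figure D1:**
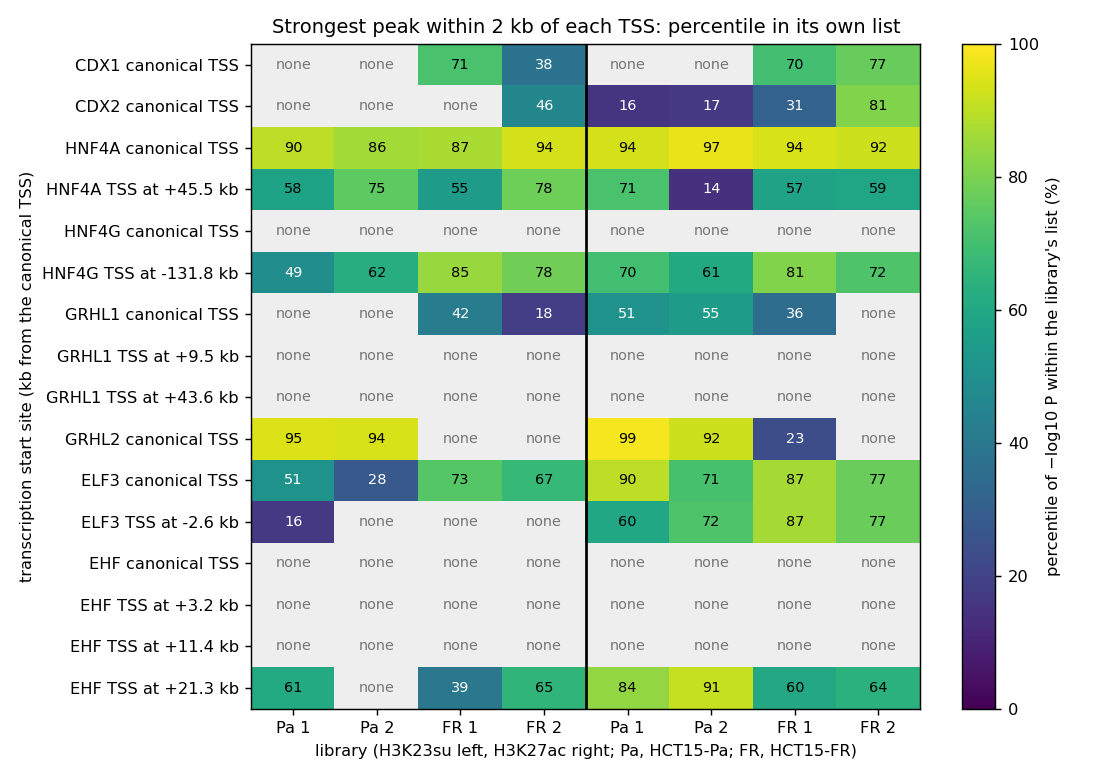
Percentile of the strongest peak within 2 kb of each TSS (rows, canonical and alternative TSSs of the 8 genes, named by distance in kb) in each library (columns, H3K23su left and H3K27ac right). Grey cells had no peak, and CDX1 has peaks in the HCT15-FR columns alone, GRHL2 strong peaks in the HCT15-Pa columns.

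GRHL2, whose product maintains epithelial cadherin expression, showed the opposite arrangement. For H3K23su its promoter was Pa-only, with peaks at the 94.6 and 93.9 percentiles in HCT15-Pa 1.09 to 2.04 kb downstream of the TSS, and a further Pa-only region over the TSS at the 84.1 and 29.1 percentiles. For H3K27ac, the HCT15-Pa libraries had peaks at the 98.5 and 92.3 percentiles, and HCT15-FR replicate 1 had a single peak of 168 bp at the 23.5 percentile 1.15 kb downstream. HCT15-FR replicate 2 had none. The H3K27ac region over the TSS itself (chr8:102504373-102505063) was Pa-only, at the 75.0 and 87.2 percentiles. A long non-coding RNA gene, ENSG00000254024, starts 9 bp from the middle of that region, so the region cannot be assigned to GRHL2 alone.

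GRHL1 differed in H3K23su only. Its TSS carried weak H3K23su peaks in HCT15-FR, at the 41.9 and 18.3 percentiles and 589 and 146 bp wide, and none in HCT15-Pa. H3K27ac was present there in both HCT15-Pa libraries at the 51.0 and 54.8 percentiles and in HCT15-FR replicate 1 at the 35.9 percentile, and no peak was listed for HCT15-FR replicate 2. Within 2 kb of the TSS, H3K27ac covered 493 and 917 bp in HCT15-Pa and 1266 and 0 bp in HCT15-FR, which overlapped between lines. The GRHL1 promoter was thus neither FR-only nor Pa-only for H3K27ac.

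In all, 2 of the 8 canonical promoters were FR-only for H3K23su (CDX1 and GRHL1) and 1 was Pa-only (GRHL2). Of all protein-coding genes, 1.87% were FR-only and 1.71% Pa-only for H3K23su. For H3K27ac, 1 of 8 was FR-only (CDX1) and 0 were Pa-only, against 1.42% and 2.19% of all genes. With 8 genes and 2 libraries a line, these counts are a description. The CDX1 H3K27ac promoter stayed FR-only under each alternative tried, but only 1 library kept an H3K23su promoter peak of CDX1 among the stronger 50% of each list. GRHL1 then had none, which left 0 FR-only H3K23su promoters. The H3K23su promoter of GRHL2 was Pa-only under every alternative.

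The other 5 genes did not differ in promoter class in this way. CDX2 had weak H3K27ac at its TSS in all 4 libraries, at the 15.6 and 16.7 percentiles in HCT15-Pa and the 31.4 and 29.3 percentiles in HCT15-FR. H3K23su at the CDX2 TSS was listed in HCT15-FR replicate 2 only, at the 46.1 percentile. A stronger shared H3K27ac region lay between -2.91 and -1.89 kb from the TSS, at the 81.4, 76.2, 70.9 and 81.2 percentiles in HCT15-Pa 1 and 2 and HCT15-FR 1 and 2, and H3K23su was shared there as well. The stronger peaks at CDX2 thus lay beside its TSS and not on it.

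HNF4A, which is transcribed from a pair of promoters, had both marks at both promoters in all libraries. At the upstream, canonical TSS, H3K23su lay at the 90.0 and 86.1 percentiles in HCT15-Pa and the 87.5 and 93.5 percentiles in HCT15-FR, and H3K27ac lay between the 92.3 and 96.5 percentiles. The H3K23su peak was 1199 and 1320 bp wide in HCT15-Pa and 1856 and 1790 bp wide in HCT15-FR, and the widths did not overlap between lines. The mean width of all H3K23su peaks was likewise larger in HCT15-FR, 586 and 581 bp against 507 and 505 bp. At the second TSS, 45.5 kb downstream, the percentiles ranged from 55.1 to 77.7 for H3K23su and from 14.2 to 71.3 for H3K27ac.

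ELF3, an ETS factor of differentiating epithelium, was shared in both marks at its canonical TSS. The H3K23su peak there covered 470 and 551 bp in HCT15-Pa and 939 and 1082 bp in HCT15-FR, at the 51.3, 27.8, 73.5 and 67.1 percentiles. H3K27ac covered 948, 1162, 1402 and 1554 bp in the same order. These covered lengths were larger in both HCT15-FR libraries for both marks. The mean width of all peaks was likewise larger in HCT15-FR. It was 586 and 581 bp against 507 and 505 bp for H3K23su, and 627 and 608 bp against 550 and 550 bp for H3K27ac. An upstream TSS of ELF3, at -2.64 kb, lay in an H3K27ac region (chr1:201976487-201977657) that was Pa-only, at the 59.6 and 72.4 percentiles. By peaks within 2 kb, however, that TSS was shared for H3K27ac, as the canonical one was. The HCT15-FR peaks at the canonical TSS reached into its window, over 108 and 180 bp.

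HNF4G and EHF had no peak of either mark within 2 kb of the canonical TSS in any library, and both had peaks near another TSS. For HNF4G, that TSS lies at -132 kb from the canonical one, where both marks were shared. H3K23su covered 1042 and 446 bp within 2 kb of it in HCT15-Pa and 1900 and 1997 bp in HCT15-FR, and H3K27ac 1329, 1103, 2012 and 2058 bp in the same order. For EHF, an ETS factor related to ELF3, the TSS 21.3 kb downstream had H3K27ac at the 83.9 and 91.2 percentiles in HCT15-Pa and the 60.5 and 64.0 percentiles in HCT15-FR. H3K23su was listed there in 3 libraries and not in HCT15-Pa replicate 2. These 2 genes would be read as unmarked from the canonical TSS alone.

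Promoters included, the 8 genes and their flanks held 176 H3K23su regions and 198 H3K27ac regions. For H3K23su, 13 (7.39%) were FR-only and 11 (6.25%) Pa-only, against 7.95% and 5.01% of all 122500 regions. For H3K27ac, 11 were FR-only and 11 Pa-only (5.56% each), against 9.08% and 4.53% of all 133786 regions. The shares of the members' regions were therefore close to the background for H3K23su, and for H3K27ac the FR-only share was below it. A further 46 and 57 regions were shared, and 78 and 83 were listed in 1 library only. The regions were not spread evenly over the genes, from 4 of each mark at HNF4G to 34 of H3K23su at HNF4A.

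**Figure D2:**
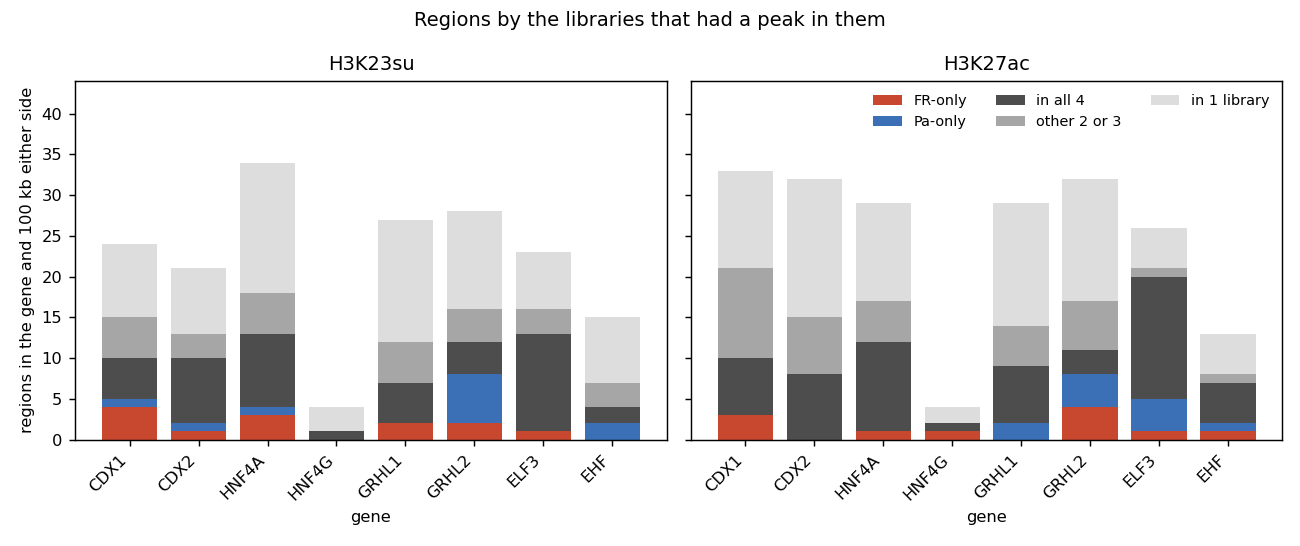
Number of regions (vertical axis) of H3K23su (left) and H3K27ac (right) in each gene and 100 kb on either side, divided by the libraries that had a peak. GRHL2 has the most Pa-only H3K23su regions (6), and CDX2 has no FR-only or Pa-only H3K27ac region.

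At GRHL2, FR-only and Pa-only regions lay in different parts of the locus. Over all regions, 5.01% of H3K23su and 4.53% of H3K27ac were Pa-only. Introns of GRHL2 held 15 of its 28 H3K23su regions and 17 of its 32 H3K27ac regions, whatever their class. All 6 of its Pa-only H3K23su regions lay at the promoter (2) or in introns (4), and both of its FR-only H3K23su regions lay upstream, at -37.3 and -18.1 kb from the TSS. For H3K27ac, 1 Pa-only region was at the promoter and 3 were intronic, while the 4 FR-only regions were upstream (2) and downstream (2) of the gene. The intronic regions 12.1 and 22.0 kb into the gene were Pa-only in both marks. At 22.0 kb, H3K23su lay at the 78.5 and 90.5 percentiles and H3K27ac at the 34.5 and 61.8 percentiles in HCT15-Pa. At 12.1 kb, the values were 31.3 and 64.9 for H3K23su and 72.8 and 68.7 for H3K27ac. The upstream H3K27ac region at -40.3 kb was FR-only, at the 48.1 and 48.2 percentiles. It lay over an H3K23su region that was shared and ranked higher in HCT15-Pa (89.2 and 78.7) than in HCT15-FR (4.95 and 52.0). The TSS nearest to the middle of this H3K27ac region is that of a long non-coding RNA gene, ENSG00000254084, 284 bp away.

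**Figure D3:**
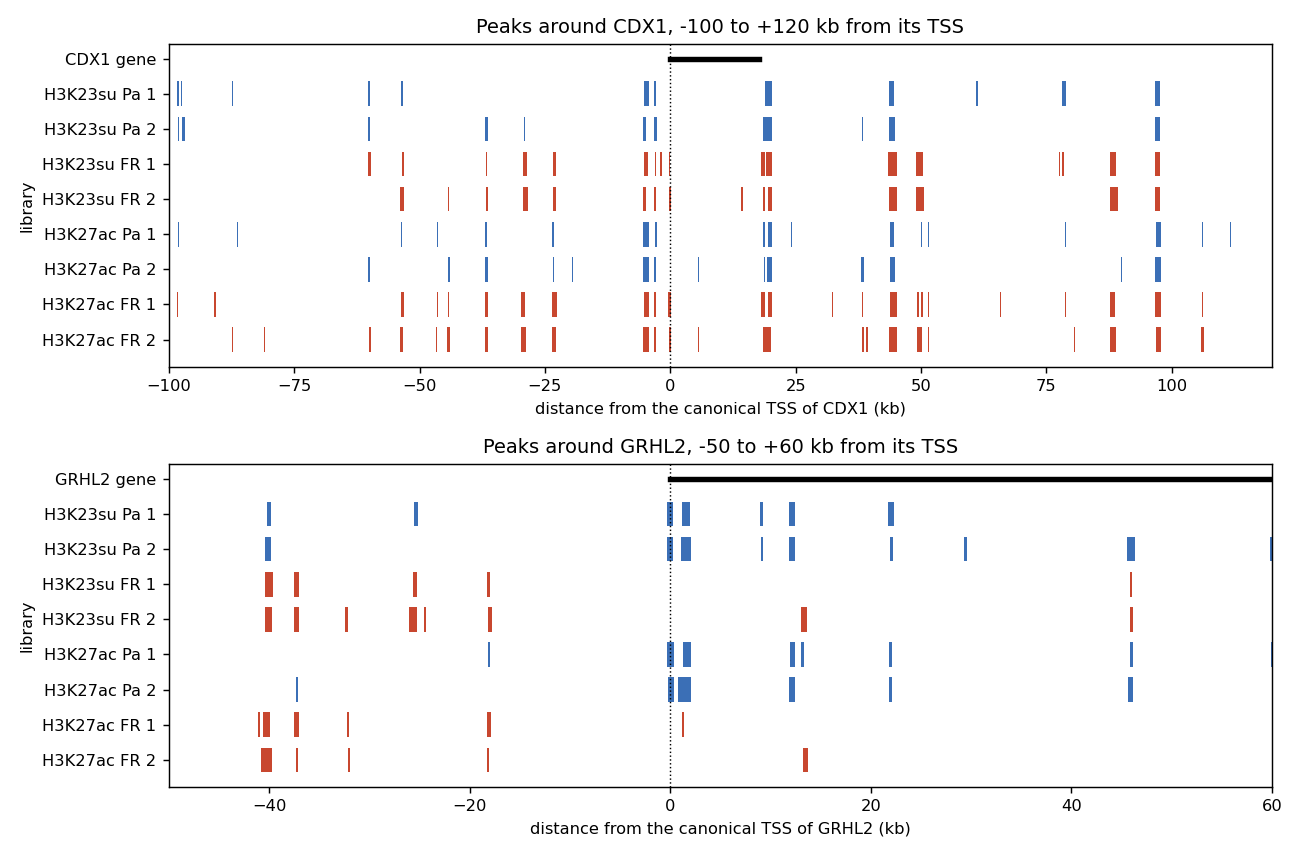
Peaks of each library (rows, HCT15-Pa blue and HCT15-FR red) by distance from the canonical TSS in kb, for CDX1 (top) and GRHL2 (bottom). Peaks at the CDX1 TSS and 88 kb downstream are in HCT15-FR rows. Those at the GRHL2 TSS and 12 and 22 kb into the gene are in HCT15-Pa rows, apart from 1 narrow HCT15-FR peak near the TSS. Between 13.0 and 13.7 kb into GRHL2, HCT15-FR replicate 2 has a peak of each mark and HCT15-Pa replicate 1 has an H3K27ac peak.

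Around CDX1, 4 of 24 H3K23su regions were FR-only and 1 was Pa-only. For H3K27ac, 3 of 33 were FR-only and 0 Pa-only. Over all regions, 7.95% of H3K23su and 9.08% of H3K27ac were FR-only, and on chromosome 5, which carries CDX1, 7.91% and 10.1%. Besides the promoter, a region 88 kb downstream of the TSS was FR-only in both marks. There H3K23su (chr5:149634046-149635685) was at the 77.9 and 83.0 percentiles and H3K27ac (chr5:149633947-149635202) at the 62.8 and 64.5 percentiles. Its nearest TSS is one of CAMK2A, 9975 bp away, and the gene it acts on was not tested. At -23.1 kb, H3K23su was FR-only, at the 60.5 and 67.2 percentiles, over H3K27ac that was shared, at the 32.4 and 51.7 percentiles in HCT15-Pa and 59.2 and 77.0 in HCT15-FR. At 49.8 kb downstream, H3K23su was FR-only at the 48.8 and 38.1 percentiles. The single Pa-only region, at -98.2 kb, lay within 2 kb of the TSS of an alternative transcript of CSF1R.

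Near ELF3, 1 region downstream of the gene was FR-only in both marks, 18.8 kb from the canonical TSS by H3K27ac (chr1:201997879-201999153). H3K27ac was at the 79.6 and 84.5 percentiles, and H3K23su was weaker, at the 9.69 and 64.1 percentiles. The TSS nearest to the middle of the H3K27ac region is that of a pseudogene, ENSG00000232296, 782 bp away. The 4 Pa-only H3K27ac regions around ELF3 included the upstream TSS described above, and in 2 of the other 3 the weaker peak was only at the 2.34 or 5.04 percentile. The 200 bp in the middle of the downstream H3K27ac region and of the CDX1 region at 88 kb are shown, since these are the distal regions that were FR-only in both marks. Both are on the plus strand of hg19, and capitals mark AP-1 and FOX letters.

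ELF3 downstream, chr1:201998416-201998615: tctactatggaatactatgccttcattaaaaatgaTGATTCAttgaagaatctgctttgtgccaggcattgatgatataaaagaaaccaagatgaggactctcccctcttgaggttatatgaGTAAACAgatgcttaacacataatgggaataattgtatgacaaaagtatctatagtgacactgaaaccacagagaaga
CDX1 downstream, chr5:149634475-149634674: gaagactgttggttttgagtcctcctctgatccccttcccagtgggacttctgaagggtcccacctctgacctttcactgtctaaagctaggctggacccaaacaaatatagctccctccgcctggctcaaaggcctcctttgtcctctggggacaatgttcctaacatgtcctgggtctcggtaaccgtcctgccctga

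The ELF3 window held 1 AP-1 and 1 FOX match, and the CDX1 window none of the 7 motifs. AP-1 letters were present in 13 of the 176 H3K23su and 22 of the 198 H3K27ac windows of the members, against 9.41% and 9.88% of all regions of the mark. By class, 3 of 11 FR-only windows and 1 of 11 Pa-only windows of H3K27ac held them, as did 2 of 13 and 0 of 11 of H3K23su. These numbers are too small to compare.

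Of 34 H3K23su regions at HNF4A, 3 were FR-only and 1 was Pa-only, and of 29 H3K27ac regions 1 was FR-only. The Pa-only one (chr20:43031339-43031677), beside the second TSS, was weak, at the 31.1 and 13.4 percentiles. The strongest H3K23su one, in the gene 51.6 kb from the canonical TSS (chr20:43035607-43036367) and overlapping an annotated exon, lay at the 87.6 and 77.5 percentiles in HCT15-FR and was not listed in HCT15-Pa. The same place carried strong H3K27ac in all 4 libraries, at the 92.9 and 93.2 percentiles in HCT15-Pa and the 84.5 and 87.7 in HCT15-FR. Thus a place within HNF4A that was acetylated in all 4 libraries had listed H3K23su in 1 line only. The TSS nearest to it is that of a microRNA gene, MIR3646, 773 bp away, and the gene it acts on was not tested. The intron of GRHL1 held a similar place 23.6 kb from the TSS, with H3K23su FR-only at the 68.4 and 49.2 percentiles and H3K27ac shared. GRHL1 also had 2 Pa-only H3K27ac regions, both beyond the 3′ end of the gene.

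CDX2 had 1 FR-only and 1 Pa-only H3K23su region. The Pa-only one, at -53.7 kb (chr13:28596908-28597412), was at the 90.0 and 82.3 percentiles, nearest to an alternative TSS of FLT3. Chromosome 13, which carries CDX2, had a larger share of Pa-only regions than the whole list, 9.14% for H3K23su and 8.12% for H3K27ac, and a smaller share of FR-only regions, 5.56% and 6.43%. What part this has in the CDX2 values was not tested. EHF had 2 Pa-only H3K23su regions, and for H3K27ac 1 Pa-only and 1 FR-only region. Pa-only regions 56 kb upstream overlapped between marks, at the 52.2 and 6.25 percentiles for H3K23su and 30.0 and 31.1 for H3K27ac. The FR-only H3K27ac region (chr11:34778321-34779392), downstream of the gene, was at the 73.7 and 55.9 percentiles. HNF4G had 1 FR-only H3K27ac region, 4.41 kb from its marked upstream TSS, at the 44.6 and 53.8 percentiles.

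The marks were compared at the same places. Of the 46 shared H3K23su regions of the members, 41 overlapped a shared H3K27ac region. An H3K27ac region of the same class overlapped 3 of the 13 H3K23su regions that were FR-only and 4 of the 11 that were Pa-only. Over all regions, these shares were 80.3%, 35.8% and 19.8%. The 3 FR-only pairs were the CDX1 promoter, the region 88 kb from CDX1 and the one downstream of ELF3. The 4 Pa-only pairs were 3 at GRHL2 and 1 at EHF.

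The length covered by peaks in the gene and 100 kb on either side was then compared between lines, with a two-sided exact permutation test that cannot give a p below 0.333 for 2 libraries against 2. For H3K23su, both HCT15-FR libraries were above both HCT15-Pa libraries at 5 of the 8 genes (CDX1, CDX2, HNF4G, GRHL1 and ELF3) and below them at 0, against 57.5% and 12.3% of all genes with a peak. For H3K27ac, 4 genes were above (CDX1, HNF4A, HNF4G and ELF3) and 2 below (GRHL1 and EHF), against 56.3% and 13.7%. Each of these gave the smallest p, 0.333. The shares above were thus near the background. The HCT15-FR lists cover more of the genome, and what part this has in these values was not tested.

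**Figure D4:**
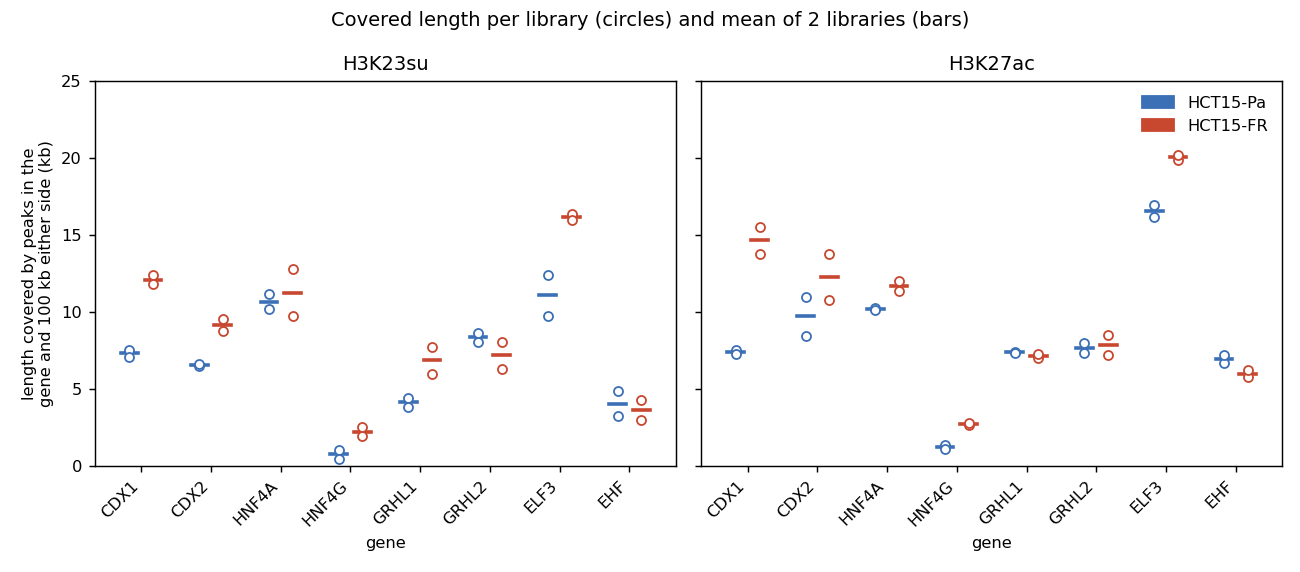
Length covered by peaks (kb) in each gene and 100 kb on either side, per library (circles) with the mean of 2 libraries (bars), for H3K23su (left) and H3K27ac (right). The circles of CDX1, HNF4G and ELF3 are higher in HCT15-FR for both marks, and those of GRHL2 overlap.

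CDX1 had 7.49 and 7.09 kb of H3K23su in HCT15-Pa and 12.4 and 11.8 kb in HCT15-FR, a ratio of means of 1.66 at the 89.7 percentile of all genes. Its H3K27ac covered 7.53 and 7.27 kb against 13.8 and 15.5 kb, a ratio of 1.98 at the 95.8 percentile. HNF4G had the largest ratios of the 8 but the shortest lengths. It had 1.04 and 0.446 kb of H3K23su in HCT15-Pa and 1.90 and 2.49 kb in HCT15-FR (ratio 2.95, 98.8 percentile), and 1.33 and 1.10 kb of H3K27ac against 2.66 and 2.79 kb (ratio 2.24, 97.3 percentile). ELF3 had the largest mean lengths of the 8 genes, with 9.75 and 12.4 kb of H3K23su in HCT15-Pa and 16.4 and 15.98 kb in HCT15-FR, and 16.9 and 16.2 kb of H3K27ac against 19.9 and 20.2 kb. These 3 genes were higher in HCT15-FR for both marks.

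GRHL2 and EHF had ratios at the low end of all genes for H3K23su. GRHL2 had 8.04 and 8.64 kb of H3K23su in HCT15-Pa and 6.27 and 8.06 kb in HCT15-FR, a ratio of 0.859 at the 11.8 percentile of all genes, with overlapping libraries (p = 0.667, exact permutation test). Its H3K27ac lengths, 7.97 and 7.30 kb against 8.47 and 7.22 kb, overlapped too (ratio 1.03), although many of the regions behind them differed between the lines. EHF had 4.86 and 3.20 kb of H3K23su in HCT15-Pa and 4.25 and 2.97 kb in HCT15-FR (ratio 0.896, 14.0 percentile). It had 6.65 and 7.19 kb of H3K27ac in HCT15-Pa and 5.75 and 6.20 kb in HCT15-FR, a ratio of 0.864 at the 12.3 percentile. GRHL1 was split between marks, with 4.43 and 3.84 kb of H3K23su against 7.71 and 5.97 kb (ratio 1.66), and 7.38 and 7.34 kb of H3K27ac against 7.004 and 7.23 kb (ratio 0.967).

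CDX2 and HNF4A each overlapped between lines in 1 mark. CDX2 had 6.48 and 6.61 kb of H3K23su in HCT15-Pa and 9.51 and 8.74 kb in HCT15-FR (ratio 1.39, 72.6 percentile), while its H3K27ac lengths of 11.0 and 8.41 kb and of 10.8 and 13.8 kb overlapped (ratio 1.26, 66.4 percentile). HNF4A had 11.1 and 10.2 kb of H3K23su against 12.8 and 9.72 kb, which overlapped (ratio 1.06, 28.5 percentile), and 10.3 and 10.1 kb of H3K27ac against 12.0 and 11.4 kb (ratio 1.15, 48.0 percentile). Over the 8 genes the median ratio was 1.43 for H3K23su and 1.18 for H3K27ac, beside 1.22 and 1.16 over all genes.

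**Figure D5:**
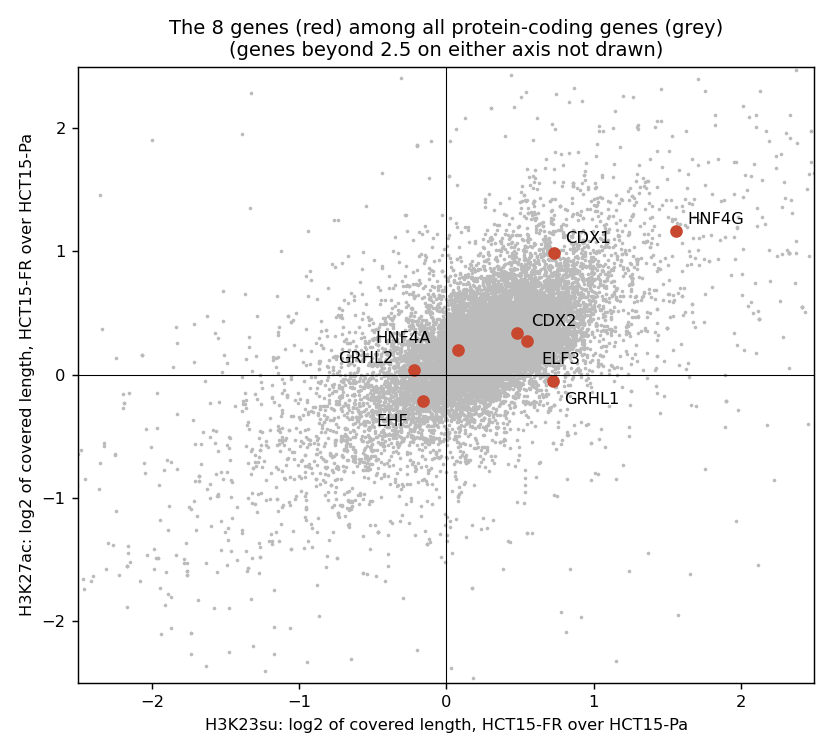
Log2 ratio of covered length, HCT15-FR over HCT15-Pa, for H3K23su (horizontal) and H3K27ac (vertical), for all protein-coding genes with a ratio in both marks within the axes (grey) and the 8 genes (red). CDX1 and HNF4G lie towards the upper right, at ratios of 1.66 and 2.95 for H3K23su, while EHF lies below 0 on both axes.

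Other genes of the same programmes were read from lists of 30 intestinal and 30 epithelial genes. Of the 30 intestinal genes, 2 H3K23su promoters were FR-only and 11 were shared, and for H3K27ac 3 were FR-only and 14 shared. TFF3, a secreted trefoil factor of goblet cells, was FR-only in both marks, at the 68.5 and 57.2 percentiles for H3K23su and the 58.0 and 58.7 for H3K27ac. CDH17, the intestinal cadherin, was FR-only for H3K23su at the 45.9 and 61.8 percentiles, over shared H3K27ac between the 82.5 and 85.1 percentiles. GUCY2C, an intestinal receptor guanylate cyclase, was FR-only for H3K27ac at the 69.0 and 62.6 percentiles.

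Of the 30 epithelial genes, 22 H3K23su and 21 H3K27ac promoters were shared, among them CDH1, EPCAM, ESRP1 and CLDN4. For H3K23su 1 was FR-only, and for H3K27ac 2 were FR-only and 1 Pa-only. GRHL3, the remaining member of the GRHL family, was FR-only in both marks, at the 53.0 and 80.9 percentiles for H3K23su and the 63.0 and 76.8 for H3K27ac. The GRHL genes therefore had 3 different promoter patterns. SPDEF, an ETS factor of secretory cells, was FR-only for H3K27ac at the 30.1 and 69.3 percentiles and shared for H3K23su. ELF5 was Pa-only for H3K27ac at the 67.1 and 28.3 percentiles.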

How the data were processed

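The data were 8 CUT&Tag peak lists of HCT15, 1 per library. The authors aligned read pairs to hg19 with Bowtie2, removed duplicates with SAMtools and called peaks in each library with MACS2, as broad peaks for H3K27ac, so widths are compared within a mark only. The deposited score is the −log10 P of each peak as the authors gave it, and it was used only to rank peaks within a list. The read depth at peak calling is not given in the lists, so no interval could be set on a missing peak. Groups were taken from the sample labels.

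Peaks that overlapped or touched were joined per mark, and presence in a library needed 1 bp of overlap. TSSs and gene bounds came from GENCODE release 44 mapped to GRCh37, with the gene's 5′ end for 280 genes without a canonical transcript. Sequences came from GRCh37. Named regions were, per gene, mark and class, those whose weaker peak had the highest percentile, and others are named where both marks or a promoter are described. Genes of the lists were named if their promoter differed, up to 4 per list, those in both marks first, and some of these results are not reported here. The members and lists were chosen with earlier results of these data known, and the further named regions after their values were seen. Libraries were not paired by replicate number in the main comparison. Deviations in peak presence of same-numbered libraries correlated at 0.0029 for H3K23su and -0.00051 for H3K27ac over regions. These correlations cannot show whether same-numbered libraries were prepared together. Alternatives were lists restricted to their stronger 50% or to equal length, 50% of a region covered, merging within 500 bp, a 50 kb flank, all coding TSSs, a 1 kb promoter, leaving out each library and a replicate block. The joining, classes and permutation test were checked on simulated data. Python 3.11.15, numpy 2.4.6, scipy 1.17.1 and matplotlib 3.10.9 were used.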

Additional observations from a re-analysis of the deposited data

How the results depend on the processing

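Of 84 alternative values for counts over the members, 62 stayed within 1.5 times the value reported, and of 128 alternative differences in covered length per gene, 118 kept their sign. With the stronger 50% of each list, H3K23su gave 7 FR-only and 5 Pa-only regions, 0 FR-only promoters, and H3K27ac 7 Pa-only regions and 2 Pa-only promoters (GRHL1 and GRHL2). At 50% of the region covered there were 20 FR-only H3K23su and 23 FR-only H3K27ac regions. With 50 kb on either side there were 7 FR-only and 7 Pa-only H3K27ac regions. With a 1 kb promoter, 1 H3K27ac promoter was Pa-only (GRHL2).

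Leaving out a library, FR-only H3K23su regions numbered 16 to 35, Pa-only 14 to 34, FR-only H3K27ac 19 to 35 and Pa-only 13 to 36, since fewer libraries then define a class. Without HCT15-FR replicate 1, 2 H3K27ac promoters were Pa-only (GRHL1 and GRHL2), and the range over libraries was 0 to 2.

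The H3K23su difference of EHF turned to 0.284 kb with 50 kb on either side, 0.226 kb without HCT15-FR replicate 2 and 0.410 kb without HCT15-Pa replicate 1, with a range of -1.25 to 0.410 kb over the libraries left out. That of HNF4A turned to -0.0465 kb with 50 kb and -0.926 kb without HCT15-FR replicate 1 (range -0.926 to 2.14 kb). The H3K27ac difference of GRHL1 turned to 0.382 kb with the stronger 50%. That of GRHL2 turned to -0.794 kb with 50 kb, -2.09 kb with the stronger 50%, -0.409 kb without HCT15-FR replicate 1 and -0.118 kb without HCT15-Pa replicate 2 (range -0.409 to 0.842 kb). The causes were not tested.

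With a replicate block, in which same-numbered libraries were set against each other, 5 genes were higher in HCT15-FR in both pairs for H3K23su and 4 for H3K27ac, and the sign-flip test cannot give a p below 0.5.

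The lists limit what can be said: a peak missing from a list was not detected at the authors' threshold, and scores carry no depth.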

Other observations

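Among all protein-coding genes, those whose covered length within 2 kb of the TSS was nearest to that of a member over the 8 libraries, by Euclidean distance, were found for the 3 members with a promoter that differed. For CDX1 these were ZNF585A (187 bp), ZNF268 (234 bp) and ENSG00000261832 (245 bp). For GRHL1 they were SPHK1 (601 bp), PTPN3 (647 bp) and CDK5R1 (659 bp). For GRHL2 they were GRIN2B (462 bp), MGST1 (507 bp) and AL592284.1 (537 bp). GRIN2B and MGST1 were Pa-only in both marks.

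Of the members' regions, 22 for H3K23su and 30 for H3K27ac lay within 2 kb of a canonical or alternative TSS of another protein-coding gene. These included the H3K27ac region at -29.3 kb from CDX1, at an alternative TSS of PDGFRB, FR-only at the 61.9 and 47.6 percentiles, and the H3K23su region at an alternative TSS of PKIG within the flank of HNF4A, FR-only at the 84.2 and 5.64 percentiles.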
